A study of Mus musculus with 6 samples.

Results

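The genes described here are 9 long noncoding RNA genes of the mouse that carry small nucleolar RNAs (snoRNAs) in their introns, namely Gas5, Snhg1, Snhg3, Snhg5, Snhg6, Snhg8, Snhg12, Snhg15 and Snhg17. They were chosen by symbol from a table of 55487 genes, each symbol matched 1 gene, and all 9 were among the 18766 tested genes, whose mean was at least 3. The table holds rlog values (regularized logarithms to base 2), in which differences in library size are removed and low values are drawn toward the gene's mean. It holds no counts, so the depth of each library is unknown.

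snoRNAs are short nucleolar RNAs that guide the chemical modification of ribosomal RNA. In vertebrates most are cut out of the introns of a host transcript, and some hosts encode no protein. The spliced RNA of such hosts is known to be short-lived where it is translated, because short reading frames expose it to nonsense-mediated decay. Many hosts also start with a run of pyrimidines, the terminal oligopyrimidine start shared with genes of ribosomal proteins, whose translation follows growth signals through mTOR.

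Total RNA was sequenced from 6 libraries of cKit+ cells of mouse bone marrow, 3 per group. The WT cells had received a lentivirus for overexpression of MLLT3 WT, and the DM cells one for MLLT3 K63E K67E, which carries both substitutions in the YEATS domain, the part of MLLT3 that reads acylated histones. Sorted cells of both groups then grew for 8 days in methylcellulose with 10 ng/mL mFlt3L, with 20 ng/mL of each of mIL-3, mIL-6, mIL-11, mSCF, mGMCSF, hEPO and hTPO, with 50 µg/mL gentamycin and with 200 nM 4-hydroxytamoxifen. The tamoxifen was given in both groups to delete the cells' own Mllt3, so the design has both groups carry that deletion and a vector, and no group without a vector was analysed here. The labels give all libraries batch 1, but give no strain, age or Cre driver. They do not say that replicates came from separate animals, so the p-values measure the spread between these libraries only, which may be technical.

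Mllt3 was read first as the targeted gene. In WT replicates 1 to 3 it stood at 12.87, 12.60 and 12.44, and DM replicates 1 to 3 gave 12.44, 12.03 and 11.99 (log2 change -0.48, limma adjusted p 0.0448, a call lost in 6 of 12 alternatives). The values do not tell vector from endogenous transcripts, so they do not check the labels. Kit, the receptor by which the cells were selected, lay between 14.29 and 14.58 in WT and between 14.30 and 14.90 in DM.

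The RNA starts of the hosts are shown first, because the run of pyrimidines is the feature by which such hosts are best known. RefSeq gives start windows for 8 of the 9 genes on GRCm38.p6, all but Snhg6. A start was counted as terminal oligopyrimidine where a C at the annotated first base is followed by at least 4 pyrimidines. Each sequence below runs 5′ to 3′ from 20 bases before the RefSeq start, is 60 bases long, and has in capitals a run of at least 5 pyrimidines that begins with a C within 10 bases of the start.
Snhg5, chr9:88522858-88522917, minus strand: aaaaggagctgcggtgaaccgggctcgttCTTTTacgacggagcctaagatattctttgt
Snhg1, chr19:8723467-8723526, plus strand: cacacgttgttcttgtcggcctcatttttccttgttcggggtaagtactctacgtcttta
Gas5, chr1:161035146-161035205, plus strand: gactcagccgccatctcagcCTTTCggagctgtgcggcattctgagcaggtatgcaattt
Snhg8, chr3:123508297-123508356, minus strand: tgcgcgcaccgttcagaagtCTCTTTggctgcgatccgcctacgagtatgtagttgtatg
Snhg12, chr4:132308658-132308717, plus strand: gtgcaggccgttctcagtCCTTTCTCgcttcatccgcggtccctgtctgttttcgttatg
Snhg3, chr4:132353647-132353706, minus strand: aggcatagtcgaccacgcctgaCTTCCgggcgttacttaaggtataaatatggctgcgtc

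By this rule 2 of the 8 hosts had such a start, Gas5 (at the second of its RefSeq starts) and Snhg8, against 3.01% of the 27025 genes with a window. With a window chosen after the data were seen, a run beginning within 10 bases of the start was found in 5 of 8, adding Snhg3, Snhg5 and Snhg12, but 34.4% of all genes also had one. Snhg1 had no such run by this rule and is printed as the called host without one. Its sequence does hold the pyrimidines tttttcctt shortly after the start, but they begin with a T. The E-box CACGTG, a palindrome and so the same on both strands, was found in the whole RefSeq window, from upstream of the start into the transcript, of 1 of the 8 hosts, Snhg15, against 8.09% of all genes. These matches describe the letters in the windows and were not tested against the values.

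The guests of the called hosts Snhg1 and Snhg5 are shown next. GENCODE M21 places 33 snoRNA genes inside the 9 hosts on the same strand, from 1 each in Snhg6, Snhg8 and Snhg15 to 8 in Snhg1 and 10 in Gas5. Snord80 in Gas5 and Snora16a in Snhg12 each have more than 1 overlapping entry, and each entry is counted as a guest throughout. C/D snoRNAs direct methylation of ribosomal RNA and hold a C box near the front and a D box near the end. With the C box searched as TGATGA and the D box as CTGA on the RNA strand, 18 of the 33 held both. H/ACA snoRNAs, which direct pseudouridylation, hold ACA near the end, and 10 guests of 113 to 205 bases did. ACA was counted only in longer guests without both C/D boxes. The other 5 met neither rule. Among them Snord78, of 66 bases, holds ACA at base 56 and CTGA at base 59 but no TGATGA. The boxes are in capitals.
Gm25855, chr19:8723993-8724064, plus strand: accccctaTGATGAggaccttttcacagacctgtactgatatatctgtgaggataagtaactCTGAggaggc
Snord50a, chr9:88521529-88521600, minus strand: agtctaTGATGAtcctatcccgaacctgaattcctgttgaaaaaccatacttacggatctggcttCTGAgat
Snord50b, chr9:88521797-88521868, minus strand: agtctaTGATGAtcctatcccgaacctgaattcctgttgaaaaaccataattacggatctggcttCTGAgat

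Snord50a and Snord50b, both in Snhg5, are 72 bases long and differ by 1 base, C50A, counted from the first base of Snord50a. Gm25855 is the first of the 8 guests of Snhg1.

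Of the 9 hosts, 2 fell in DM by limma, and none rose or had an unadjusted p under 0.05 with a higher mean. Snhg5 and Snhg1 were lower in every DM library than in every WT library, at 0.713 and 0.753 of the WT level on the linear scale. Gas5, Snhg12 and Snhg3 had lower means in DM but did not pass the test, and Snhg8, Snhg15, Snhg17 and Snhg6 differed by less than 0.1 on the log2 scale. In bulk RNA, fewer cells that express a gene and less RNA per cell cannot be told apart.

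Snhg5 (ENSMUSG00000097195.10; chromosome 9, 88521050 to 88522929, minus strand) is the host of Snord50a and Snord50b. WT replicates 1 to 3 had rlog values of 8.74, 8.84 and 8.54, while those of DM replicates 1 to 3 were 8.23, 8.22 and 8.20. The groups did not overlap, and the DM libraries lay close together while WT replicate 3 was the lowest of its group. The mean went from 8.71 ± 0.154 (SD, n = 3) to 8.22 ± 0.0147 (SD, n = 3), a log2 change of -0.49 (SE 0.084, limma adjusted p 0.00705). On the linear scale DM stood at 0.713 of WT, with a 95% interval from 0.626 to 0.812. The call held in all 12 alternatives applied, with adjusted p from 0.00198 to 0.0305.

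Snhg1 (ENSMUSG00000108414.1; chromosome 19, 8723475 to 8726443, plus strand) is the host of Snord22 and 7 further snoRNA genes. In the order of the replicate numbers, the WT libraries had rlog values of 9.07, 9.08 and 8.86 and the DM libraries 8.72, 8.40 and 8.66. The groups did not overlap, with DM replicate 2 the lowest library and WT replicate 3 the nearest to DM. The mean went from 9.00 ± 0.127 (SD, n = 3) to 8.59 ± 0.168 (SD, n = 3), a change of -0.41 (SE 0.0988, limma adjusted p 0.0233), or 0.753 of WT with an interval from 0.646 to 0.877. The call was lost in 4 of 12 alternatives, each with 1 library left out. The limma adjusted p was 0.089 without WT replicate 1 (change -0.37) and 0.0514 without WT replicate 2 (-0.37). It was 0.0825 without DM replicate 2 (-0.31) and 0.0525 without DM replicate 3 (-0.44).

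Over all tested genes, 13.9% were called in either direction, 4.71% lower and 9.2% higher in DM, and for the 9 hosts the counts were 2, 2 and 0. Of the called genes 66.1% were higher in DM, but 51.3% were after quantile normalization. The hosts had a median change of -0.23, against 0.01 over all tested genes, and 7 of 9 had a lower mean in DM, against 48.4% of tested genes. With 1 library left out, that median ran from -0.29 without WT replicate 3 to -0.13 without WT replicate 1. The groups did not overlap for 3 hosts (Snhg5, Snhg1 and Gas5), all lower in DM, where 35.8% of tested genes had no overlap, 14.3% lower and 21.5% higher in DM. An unadjusted p under 0.05 with a lower mean was found for 5 hosts and for 10.8% of tested genes.

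**Figure D1:**
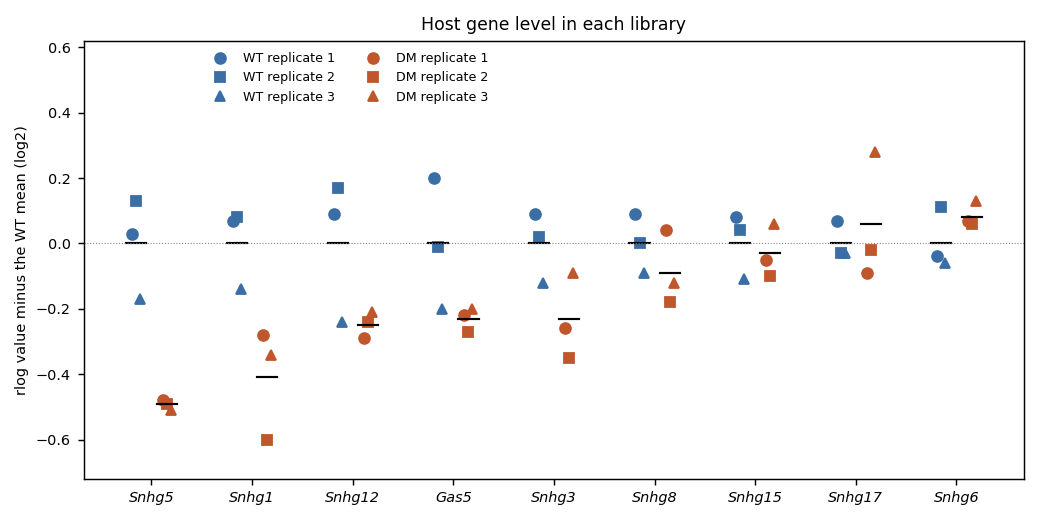
Level of each of the 9 hosts in each library, as the rlog value minus the mean of the 3 WT libraries (log2), with WT in blue, DM in orange, a marker shape for each replicate number and a black line at each group mean. The DM libraries of Snhg5 and Snhg1 all lie under the WT libraries, while WT and DM libraries of Snhg6, Snhg8, Snhg15 and Snhg17 are mixed.

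Gas5 (ENSMUSG00000053332.13; chromosome 1, 161034422 to 161038539, plus strand), first found as a transcript that accumulates in growth-arrested cells, is the host of the most guests. The WT libraries read 11.24, 11.03 and 10.84, and the DM libraries 10.82, 10.77 and 10.84 (rlog). The groups were separated by 0.00666 only, the gap between WT replicate 3 and DM replicate 3. The change was -0.23 (SE 0.0946, 95% interval -0.44 to -0.02, limma adjusted p 0.142). Gas5 passed the threshold after quantile normalization (-0.33, limma adjusted p 0.0311) and without WT replicate 3 (-0.33, 0.0274). Without WT replicate 1 its change shrank to -0.13 (limma adjusted p 0.389), and the adjusted p over the 12 alternatives ran from 0.0274 to 0.389.

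Snhg12 (ENSMUSG00000086290.9; chromosome 4, 132308623 to 132311024, plus strand), the host of Snora16a, Snora44, Snora61 and Snord99, read 7.50, 7.58 and 7.17 across WT and 7.12, 7.17 and 7.20 across DM. WT replicate 3 lay within the range of the DM libraries. Its change was -0.25 (SE 0.103, limma adjusted p 0.142), and -0.37 without WT replicate 3 (limma adjusted p 0.0172), the 1 alternative of 12 in which it passed.

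Snhg3 (ENSMUSG00000085241.7; chromosome 4, 132348014 to 132353686, minus strand), the host of Snora73a and Snora73b, read 7.22, 7.15 and 7.01 across WT and 6.87, 6.78 and 7.04 across DM. DM replicate 3 lay just over the lowest WT library. The change was -0.23 (SE 0.0882, limma adjusted p 0.116), and Snhg3 passed in none of the 12 alternatives (limma adjusted p 0.0675 to 0.303). WT replicate 3 was the lowest WT library for Snhg5, Snhg1, Gas5, Snhg12 and Snhg3, and also for Snhg8, Snhg15 and Snhg6. In Snhg17 it read 8.12, as did WT replicate 2. The fit without WT replicate 3 called 4 hosts lower in place of 2.

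The other 4 hosts had intervals that cross 0. Snhg8 (ENSMUSG00000104960.1; chromosome 3), the host of Snora24, read 8.63, 8.54 and 8.45 across WT and 8.58, 8.36 and 8.42 across DM, a change of -0.09 (95% interval -0.27 to 0.09). Snhg15 (ENSMUSG00000085156.8; chromosome 11), the host of Snora9, ran from 8.43 to 8.62 in WT and from 8.44 to 8.60 in DM, a change of -0.04 (-0.21 to 0.14). In both genes the ranges of the groups lay over each other.

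Snhg17 (ENSMUSG00000085385.7; chromosome 2), the host of 3 guests with ACA near the end, read 8.22, 8.12 and 8.12 across WT and 8.06, 8.13 and 8.43 across DM. The change was 0.06 (95% interval -0.16 to 0.27), and -0.06 without DM replicate 3, its highest library. Snhg6 (ENSMUSG00000098234.7; chromosome 1), the host of Snord87, read 8.94, 9.09 and 8.92 across WT and 9.05, 9.04 and 9.11 across DM, a change of 0.08 (-0.08 to 0.24, limma adjusted p 0.47). These intervals leave room for falls of up to 0.27 in Snhg8 but of no more than 0.08 in Snhg6, on the log2 scale.

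**Figure D2:**
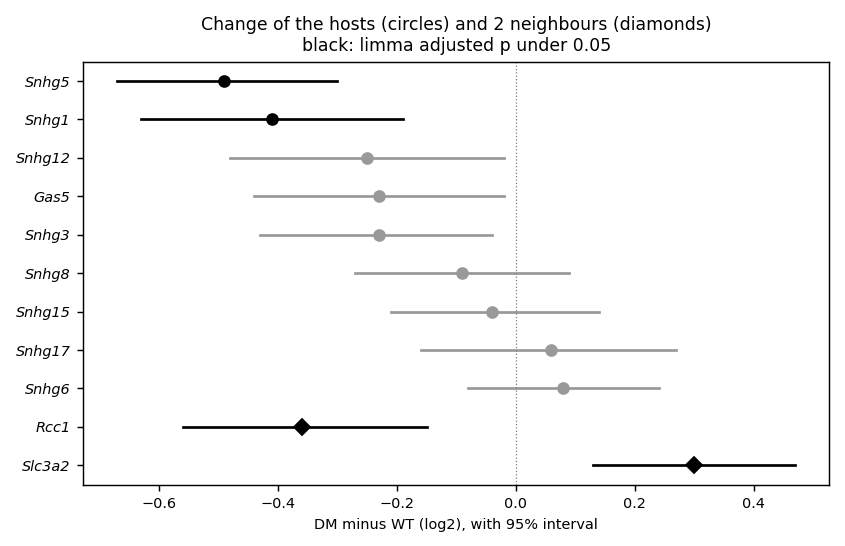
Change from WT to DM on the log2 scale with its 95% interval from limma, for the 9 hosts (circles) and for Rcc1 and Slc3a2, which neighbour Snhg3 and Snhg1 (diamonds), with black for an adjusted p under 0.05. Snhg5 (-0.49) and Snhg1 (-0.41) are the hosts in black, and Slc3a2 (0.30) is the gene in black on the side of higher values in DM.

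The hosts varied together across libraries to different degrees. After each gene was centred on its own mean, Pearson's r with the mean of the other 8 hosts over the 6 libraries was 0.95 for Snhg3, 0.90 for Gas5, 0.89 for Snhg1 and Snhg12, 0.81 for Snhg5, 0.76 for Snhg15 and 0.65 for Snhg8. It was 0.02 for Snhg17 and -0.18 for Snhg6, the hosts with a higher mean in DM. These values describe 6 points that share the group difference and the scaling of each library. The mean of the centred hosts came to 0.16, 0.14 and -0.04 for the WT replicates and to -0.09, -0.15 and -0.03 for the DM replicates, so WT replicate 3 was next to DM replicate 3.

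Among 11968 other genes with a mean of at least 6, those most like this mean profile by Pearson's r over the 6 libraries were Kdm2b (0.995), Fgfr1op (0.992), Fam185a (0.990), Rev1 (0.989) and Jmjd6 (0.989). They are the top of a ranking of many genes over 6 points, and shared regulation with the hosts was not tested. Kdm2b and Jmjd6 encode enzymes of the JmjC family, and Rev1 encodes a polymerase of DNA damage tolerance. Their changes from WT to DM ran from -0.30 in Fam185a to -0.10 in Jmjd6, and none passed the test, the lowest limma adjusted p being 0.09.

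Levels were compared between hosts only per length, as the rlog value minus the log2 of the exonic length in kilobases, with all annotated exons of a gene joined. On this scale the mean over 6 libraries was 9.01 for Gas5, 8.83 for Snhg6, 8.72 for Snhg8, 8.08 for Snhg15, 7.67 for Snhg5, 7.23 for Snhg1, 7.03 for Snhg3, 6.03 for Snhg12 and 5.36 for Snhg17. The library ranges of neighbours in this order overlapped, except between Snhg8 and Snhg15, between Snhg3 and Snhg12 and between Snhg12 and Snhg17. Without the length, Snhg1 ranked 3 rather than 6, and Snhg3 was lowest. The annotated lengths include introns kept in some transcripts, which were 20 of 25 transcripts in Gas5 and 14 of 18 in Snhg1, and spliced transcripts alone are shorter. For Snhg5 and Snhg15 the identifier in the table carries another version number than in GENCODE M21, so the exons that were counted may differ.

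**Figure D3:**
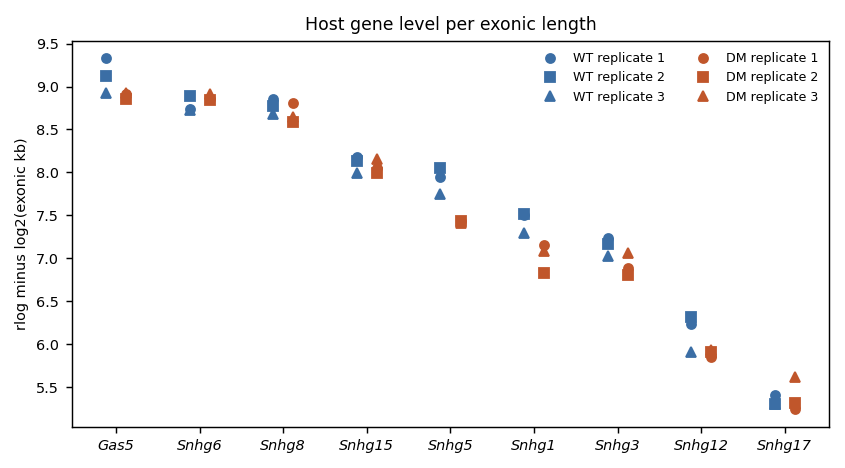
Level per exonic length, as the rlog value minus the log2 of the exonic length in kilobases, for each host and library, ordered by the mean. Gas5 is highest (mean 9.01) and Snhg17 lowest (5.36), and within Snhg5 and Snhg1 the DM libraries lie under the WT libraries.

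The guests themselves could be read from the table in few cases. Of the 33 guest snoRNA genes, 30 lie wholly within annotated exons of their host, with all transcripts of the host joined, and all 30 were listed at exactly 0 in all 6 libraries. These include all 8 guests of Snhg1, both of Snhg5 and all 10 of Gas5, so for the called hosts no guest level can be given. The 3 guests not listed at 0 were those not wholly within host exons. Snord87 in Snhg6 lies outside host exons and had values from 1.09 to 1.14, too low to be tested. Snora73a lies in exons of Snhg3 for 159 of its 205 bases and was flat at -0.27 or -0.28 in each library. Snora73b in the same host lies outside them and had values from 10.26 to 10.44.

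Over the whole table, of 135 snoRNA genes wholly within exons of another gene on their strand, 134 (99.3%) were listed at 0 in all 6 libraries, against 209 of 497 (42.1%) inside another gene but outside its exons and 316 of 840 (37.6%) in no other gene. How reads in 2 annotated genes were counted is not given in the sources used here, and its part in these zeros was not tested.

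**Figure D4:**
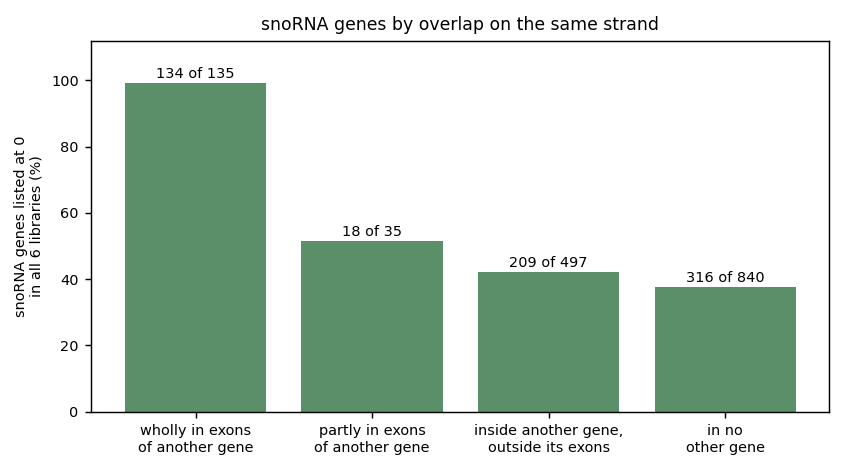
Share of annotated snoRNA genes listed at 0 in all 6 libraries, by their overlap with another gene on the same strand, with the number listed at 0 and the number of genes over each bar. The bar for genes wholly within exons of another gene, where 30 of the 33 guests belong, stands at 99.3%, and the bar for genes inside another gene but outside its exons at 42.1%.

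The pair in Snhg3 is printed because it holds the 1 guest with a level that could be compared with that of Snhg3. Both guests also lie within Rcc1, a gene on the same strand (chromosome 4, 132331919 to 132353605). Whether a guest came from transcripts of Snhg3 or of Rcc1 cannot be told from the values. Snora73a and Snora73b are copies of U17, an H/ACA snoRNA that takes part in the early cuts of the ribosomal RNA precursor. Both are 205 bases long and 96.6% identical, with 7 differences, counted from the first base of Snora73a as G3A, G54A, A111G, T164C, G203A, T204A and T205A. The final ACA is in capitals.
Snora73a, chr4:132352775-132352979, minus strand: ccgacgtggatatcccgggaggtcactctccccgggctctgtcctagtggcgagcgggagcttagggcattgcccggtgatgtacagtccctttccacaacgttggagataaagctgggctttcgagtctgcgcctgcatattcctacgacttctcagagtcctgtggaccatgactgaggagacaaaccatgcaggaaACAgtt
Snora73b, chr4:132352322-132352526, minus strand: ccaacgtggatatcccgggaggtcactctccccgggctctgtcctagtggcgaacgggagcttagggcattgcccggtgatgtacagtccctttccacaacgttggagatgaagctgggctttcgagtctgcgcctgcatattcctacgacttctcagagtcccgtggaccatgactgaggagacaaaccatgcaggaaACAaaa

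Reads from near-identical copies can be split or dropped between them, so the values of this pair are uncertain. Snora73b read 10.37, 10.36 and 10.44 across WT and 10.26, 10.39 and 10.32 across DM. The groups overlapped. The difference of Snhg3 from Snora73b within a library came to -3.15, -3.21 and -3.43 for WT, and to -3.39, -3.61 and -3.28 for DM. Its mean went from -3.27 ± 0.146 (SD, n = 3) to -3.43 ± 0.166 (SD, n = 3), which was within the spread between libraries (two-sided exact permutation p 0.3, where 3 against 3 cannot go below 0.1).

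Snhg1 and Snhg3 have close neighbours whose values bear on their reading, chosen after the values were seen. Slc3a2 (chromosome 19, 8706882 to 8723369, minus strand) encodes the heavy chain of amino acid transporters and starts 105 bases from Snhg1 on the opposite strand, so that the genes diverge. The WT libraries read 13.33, 13.38 and 13.31 and the DM libraries 13.72, 13.66 and 13.54, without overlap and opposite in direction to Snhg1. The change of Slc3a2 was 0.30 (SE 0.0763, limma adjusted p 0.0293), but 0.11 after quantile normalization (limma adjusted p 0.248). It also lost its call without WT replicate 1 (0.114), WT replicate 3 (0.0633), DM replicate 1 (0.111) or DM replicate 2 (0.113), each a limma adjusted p.

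Within a library, Snhg1 minus Slc3a2 does not depend on the scaling of libraries by a constant. It came to -4.26, -4.30 and -4.45 for WT, and to -5.00, -5.25 and -4.89 for DM. The mean differed by -0.71. Since Snhg1 was lower and Slc3a2 higher in every DM library and the pair was chosen for this, the groups could not overlap, and the difference is given as a description with no test.

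**Figure D5:**
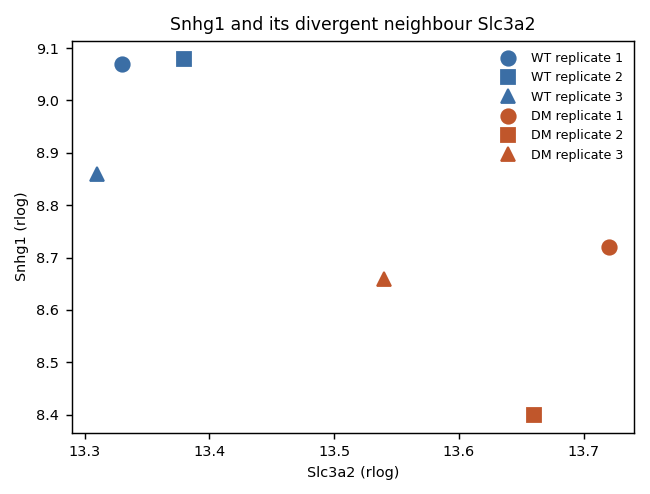
rlog value of Snhg1 against that of Slc3a2, its divergent neighbour, with 1 point for each library. The 3 DM libraries lie to the right of and under the 3 WT libraries: Slc3a2 ran from 13.31 to 13.38 in WT and from 13.54 to 13.72 in DM, and Snhg1 from 8.86 to 9.08 and from 8.40 to 8.72.

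Rcc1, which encodes the exchange factor of the GTPase Ran, lies on the strand of Snhg3 and shares 135 exonic bases with it, so reads there belong to either gene. The WT libraries read 9.71, 9.55 and 9.37 and the DM libraries 9.28, 9.16 and 9.12, without overlap. Rcc1 had a log2 change of -0.36 (SE 0.0921, limma adjusted p 0.0299), and its call was lost without the filter on the mean (limma adjusted p 0.0605) and without WT replicate 1 (0.117), WT replicate 2 (0.0514), DM replicate 2 (0.0974) or DM replicate 3 (0.109). Snhg3 minus Rcc1 within a library went from -2.42 ± 0.0661 (SD, n = 3) to -2.29 ± 0.181 (SD, n = 3) between WT and DM (two-sided exact permutation p 0.5). On opposite strands, Zbtb37 overlaps Gas5, Gm17300 overlaps Snhg3 and Mcmdc2 overlaps Snhg6. Since the use of strand in counting is not given in the sources used here, reads of such partners may be mixed. Zbtb37 changed by 0.09 (limma adjusted p 0.496) and shares no exonic base with Gas5. Gm17300 shares 705 exonic bases with Snhg3, whose joined exons hold 986 bases, and Mcmdc2 shares 127 with Snhg6. Both partners were listed at low values, with means in WT and DM of 2.93 and 2.93 for Gm17300 and of 4.00 and 3.88 for Mcmdc2.

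The other genes of the pathway were counted from lists chosen with earlier results of these data known. Counts of an unadjusted p under 0.05 in these lists are in either direction, and that share over all tested genes was not computed. Since 13.9% of tested genes passed even the limma adjusted threshold, such counts are not read as changes of a list. No other noncoding host was called: of 12 listed names, Snhg7 matched no entry, Snhg18 was under the filter, and the remaining 10 had 11 identifiers tested (Snhg4 has 2), with a median change of -0.06. Limma gave 2 of these an unadjusted p under 0.05. The one with the smallest p was Zfas1, which read 8.97, 8.75 and 8.61 across WT and 8.44, 8.57 and 8.47 across DM, without overlap, a change of -0.28 (limma adjusted p 0.0802). Zfas1 was past the threshold after quantile normalization (limma adjusted p 0.0356), after median centring (0.0491) and without WT replicate 3 (0.03), but its change was -0.18 without WT replicate 1 (limma adjusted p 0.243).

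Of 14 protein-coding hosts outside the ribosome, limma called none (median -0.05), and 3 had an unadjusted p under 0.05. Dkc1, the pseudouridine synthase of H/ACA particles and itself a host, had the smallest p among them and among the 4 H/ACA proteins, with a change of -0.30 (limma adjusted p 0.0892). None of the 4 C/D core proteins was called by limma, where 1 had an unadjusted p under 0.05: Nop56 changed by -0.24 (limma adjusted p 0.133). Dkc1 and Nop56 each passed in 3 of 12 alternatives, among them quantile normalization (-0.40 and -0.35) and the fit without WT replicate 3. Without WT replicate 1 their changes were -0.20 (limma adjusted p 0.262) and -0.16 (0.35).

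Of 11 factors that assemble the particles, 1 fell and the other 10 did not pass (median -0.01). It was Ruvbl2, an ATPase of the R2TP complex, which read 11.23, 11.15 and 10.86 across WT and 10.66, 10.64 and 10.53 across DM. Its change was -0.47 (SE 0.0962, limma adjusted p 0.0123), with the call lost without WT replicate 1 (limma adjusted p 0.0516) and without DM replicate 3 (0.0526).

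Genes of the decay and start-site pathways gave few calls. Of 14 factors of nonsense-mediated decay and of the exon junction complex, limma called none (median 0.04) and 1 had an unadjusted p under 0.05. That was Magoh, a core protein of the exon junction complex, with a change of -0.19 (limma adjusted p 0.104), and past the threshold in 3 of 12 alternatives, among them quantile normalization (0.0121) and median centring (0.0364). Of 8 transcripts known as targets of decay, 2 rose and 2 fell (median -0.15). Asns, which makes asparagine, fell from 10.29 ± 0.0944 (SD, n = 3) to 9.68 ± 0.117 (SD, n = 3), a change of -0.61 (limma adjusted p 0.0027) that held in 12 of 12 alternatives. Upp1, a uridine phosphorylase, rose by 0.45 (limma adjusted p 0.0211), a call lost without WT replicate 1, DM replicate 2 or DM replicate 3 (0.0707 to 0.0846). Trib3, a pseudokinase of the stress response, fell by 0.34 on the log2 scale (limma adjusted p 0.0251), a call lost without WT replicate 1, WT replicate 3, DM replicate 1 or DM replicate 2 (0.0695 to 0.0842). Ddit3, a stress transcription factor named after its values were seen, rose by 0.29 (limma adjusted p 0.046). The change of Ddit3 was not recomputed under the alternatives.

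Of 15 translation genes with a terminal oligopyrimidine start, limma called none (median -0.03), and 3 had an unadjusted p under 0.05. Npm1, a nucleolar chaperone of ribosome assembly, had the smallest p, with a change of -0.33 (limma adjusted p 0.0701). It was past the threshold in 5 of 12 alternatives, among them quantile normalization (-0.49, limma adjusted p 0.00621) and without WT replicate 3 (-0.43, 0.0254). Of 10 genes of mTOR signalling and of the start-site proteins, limma called none (median 0.13), with 3 at an unadjusted p under 0.05. Tsc1, which restrains mTOR, had a change of 0.25 (limma adjusted p 0.0567) and passed in 4 of 12 alternatives, while its change was 0.16 after quantile normalization (limma adjusted p 0.0842).

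Markers of cell state also differed between the groups beside these changes. Of 9 proliferation genes, 7 fell and none rose, and their mean rlog value lay between 12.01 and 12.16 in WT and between 11.60 and 11.78 in DM. All 8 neutrophil markers fell, with a mean of 13.69 to 14.01 in WT and 11.30 to 11.85 in DM. Of 6 monocyte and macrophage markers 5 rose and 1 fell (13.18 to 13.68 against 13.69 to 13.98). Of 4 eosinophil markers 3 fell, of 4 megakaryocyte markers 2 rose, and of 5 mast cell and basophil markers 1 rose and 1 fell. None of the 4 tested erythroid markers was called by limma, and none had an unadjusted p under 0.05. Of 7 stem and progenitor markers 2 fell, Myb (-0.65) and Flt3 (-0.30), and 1 of the 2 tested lymphoid markers rose. Flt3 was low, from 4.31 to 4.68 in WT and from 4.23 to 4.25 in DM, and close to the threshold (limma adjusted p 0.0494). Cd3e, a T cell marker not tested for its low mean, lay between 2.65 and 2.87, and no marker of these lists was listed at exactly 0. Hba-a1, an erythroid marker also not tested for its low mean, stood at -1.97 in each library, the lowest value of any gene. The part of these differences in the lower values of Snhg5 and Snhg1 was not tested.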

How the data were processed

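RNA-seq values of 6 libraries, 3 WT and 3 DM, were used as deposited by the authors, as rlog values on the log2 scale. That they are rlog values was read from the table's name and values (-1.97 to 21.88). Per the submitters' processing notes, cutadapt 2.6, STAR 2.7.3, DESeq2 1.30.0 and the build mm10 were used. The counting, its strand setting and the annotation are not given in the sources used here. The 142699 lines were merged to 55487 genes, since repeated lines were identical. Coordinates, exons and biotypes came from GENCODE M21 (GRCm38), matched by identifier without version (99.38% of genes), and start windows from RefSeq (GRCm38.p6). limma 3.58.1 in R 4.3.3 (eBayes with a trend) compared DM with WT over 18766 genes with a mean of at least 3, with Benjamini-Hochberg adjustment and a threshold of 0.05. Exact permutation tests used scipy 1.17.1. On simulated data for DM against WT over 18766 genes, limma called 30 of 50 genes changed by 0.3, 50 of 50 changed by 0.5, and 17 unchanged genes. The simulation changed 200 genes and drew independent normal noise, with SDs averaged over genes of similar level. It therefore does not give the power for a gene with a larger spread or for noise shared within a library. A count model had been planned in case of counts and was left out. Outside the hosts, the text names Mllt3, Kit, up to 3 called genes per list by size of change (or the smallest p) and the 5 genes most like the hosts. Neighbouring genes, Ddit3, Myb, Flt3 and Hba-a1 were named after their values were seen. The hosts, lists and tests were chosen with earlier results of these data known.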

Additional observations from a re-analysis of the deposited data

How the results depend on the processing

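Of the 12 alternatives (no filter, a mean of at least 5, no trend, quantile normalization, median centring, a replicate block and each library left out), Snhg5 was called lower in all. The number of hosts called lower was 2 and ran from 1 to 4 with a library left out: 1 without WT replicate 1, WT replicate 2, DM replicate 2 or DM replicate 3, and 4 without WT replicate 3. After quantile normalization 3 hosts were called lower. No host was called higher in any alternative. The number of tested genes called was 2611 and ran from 1119 to 3475 with a library left out. In those fits with a library left out, the number higher ran from 598 to 2323 and the number lower from 521 to 1152. The number higher was 1132 with no filter and 2632 with the replicate block, and the number lower was 1292 after quantile normalization. With a library left out, the change of Snhg15 ran from -0.09 to 0.00 (without WT replicate 1 or DM replicate 2), that of Snhg17 from -0.06 (without DM replicate 3) to 0.13 (without DM replicate 1), that of Snhg8 from -0.15 (without DM replicate 1) to -0.04 (without WT replicate 1 or DM replicate 2), and that of Snhg6 from 0.05 (without WT replicate 3) to 0.14 (without WT replicate 2). Mllt3 lost its call in 6 of 12 alternatives, Slc3a2 and Rcc1 in 5 each. The cause was not tested. Whether the replicate numbers pair the libraries is not settled by the values. Deviations of same-numbered libraries correlated at 0.49, 0.12 and 0.04, and those of other pairs from -0.34 to 0.12. WT replicate 3 was closer to DM replicate 2 (0.12) than to DM replicate 3. With the replicate block 3742 genes were called, and no host changed its call. Shrinkage and the unknown depth limit what low genes can show.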
